A study of Mus musculus with 18 samples.

Results

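The genes described here were 9 transcripts of the acute-phase and inflammatory injury response of the gut: S100a8, S100a9, Lcn2, Saa1, Saa3, Lrg1, Nos2, Duox2 and Duoxa2. They were chosen by symbol, and every probe of the array annotated to them was taken, which gave 12 of 45281 probes. Of these, 11 probes were tested, at least 1 for each of the 9 genes, among 15757 genes tested in all. Transcript levels came from Illumina MouseWG-6 BeadChips, on which many beads carry each probe of 50 bases.

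The samples were colonic epithelial cells (CECs), sorted by flow cytometry as EpCAM positive and negative for the leukocyte markers of the gate. Naive_WT were untreated wild-type mice, and Naive_KO were untreated Mbd2-/- mice (Mbd2KO in the labels), which lack the methyl-CpG binding protein Mbd2 in all cells. DSS_WT and DSS_KO were mice of the same genotypes given 2% dextran sulphate sodium (DSS) in drinking water, a polymer that damages the gut lining and causes colitis. All mice were on the C57BL/6 background and wild-type littermates served as controls. Each group had 4 samples, numbered 9 to 12 (Naive_WT), 13 to 16 (Naive_KO), 1 to 4 (DSS_WT) and 5 to 8 (DSS_KO), and a sample could hold cells pooled from several mice. The labels do not say in which of the study's experiments a sample was prepared, so experiment and group cannot be told apart. The single probe for Mbd2 was detected on 0 of 18 arrays, so the array could not check the genotype labels.

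S100a8 and S100a9 form calprotectin, a metal-binding protein that neutrophils carry in bulk and that is released at sites of inflammation. Lcn2, made by epithelium and also stored in neutrophil granules, binds bacterial siderophores and withholds iron, the serum amyloid A proteins Saa1 and Saa3 are acute-phase proteins made in liver and in mucosa, and Lrg1 is a secreted glycoprotein induced by acute-phase cytokines. Nos2 makes nitric oxide, while the oxidase Duox2 together with its maturation factor Duoxa2 releases hydrogen peroxide at the epithelial surface. In the gut, Lcn2, the Saa genes, Duox2 and Nos2 are known to be made by epithelial cells, and S100a8 and S100a9 mostly by neutrophils, although stressed epithelium can also make them.

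The labelled cell type was checked against markers. All 17 epithelial markers were tested, and limma called 0 of them, by the rule below, in any of the 4 contrasts, while 2 to 6 had an unadjusted p under 0.05, against 3388 to 4191 of all 15757 genes. At an adjusted p under 0.05 by limma, Cdh1 was lower in DSS_WT than in Naive_WT (log2 fold change -0.37) and Cdh17 higher in DSS_KO than in Naive_KO (0.52). Their summed signal lay between 152568 and 186090 intensity units in all 16 samples. Epcam, the sorting antigen, had group means of 7.45, 6.83, 6.91 and 7.02 on the log2 scale in Naive_WT, Naive_KO, DSS_WT and DSS_KO. It was lower than in Naive_WT, without overlap, in Naive_KO (-0.62, adjusted p = 0.0509 by limma) and in DSS_WT (-0.54, adjusted p = 0.0615). In bulk RNA, a different share of cells and a different amount of RNA per cell cannot be told apart.

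Values below are background-corrected, quantile-normalized log2 signals of the brightest tested probe of a gene, and differences are log2 fold changes with a standard error (SE). A probe counts as detected when it was brighter than nearly all negative controls of its array (detection p under 0.05). A gene was called, and is said to have risen or fallen, when the adjusted p of limma was under 0.01 and the log2 fold change was at least 1 in size. Levels of a gene are compared between samples on a single probe, and sums over marker lists, which add up probes, depend on how bright each probe is. A probe was tested when it was detected on at least 4 of 18 arrays, and S100a8, S100a9, Nos2 and the dimmer Duox2 probe passed this filter through the groups in which they were high, so their selection and their differences are not independent.

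**Figure D1:**
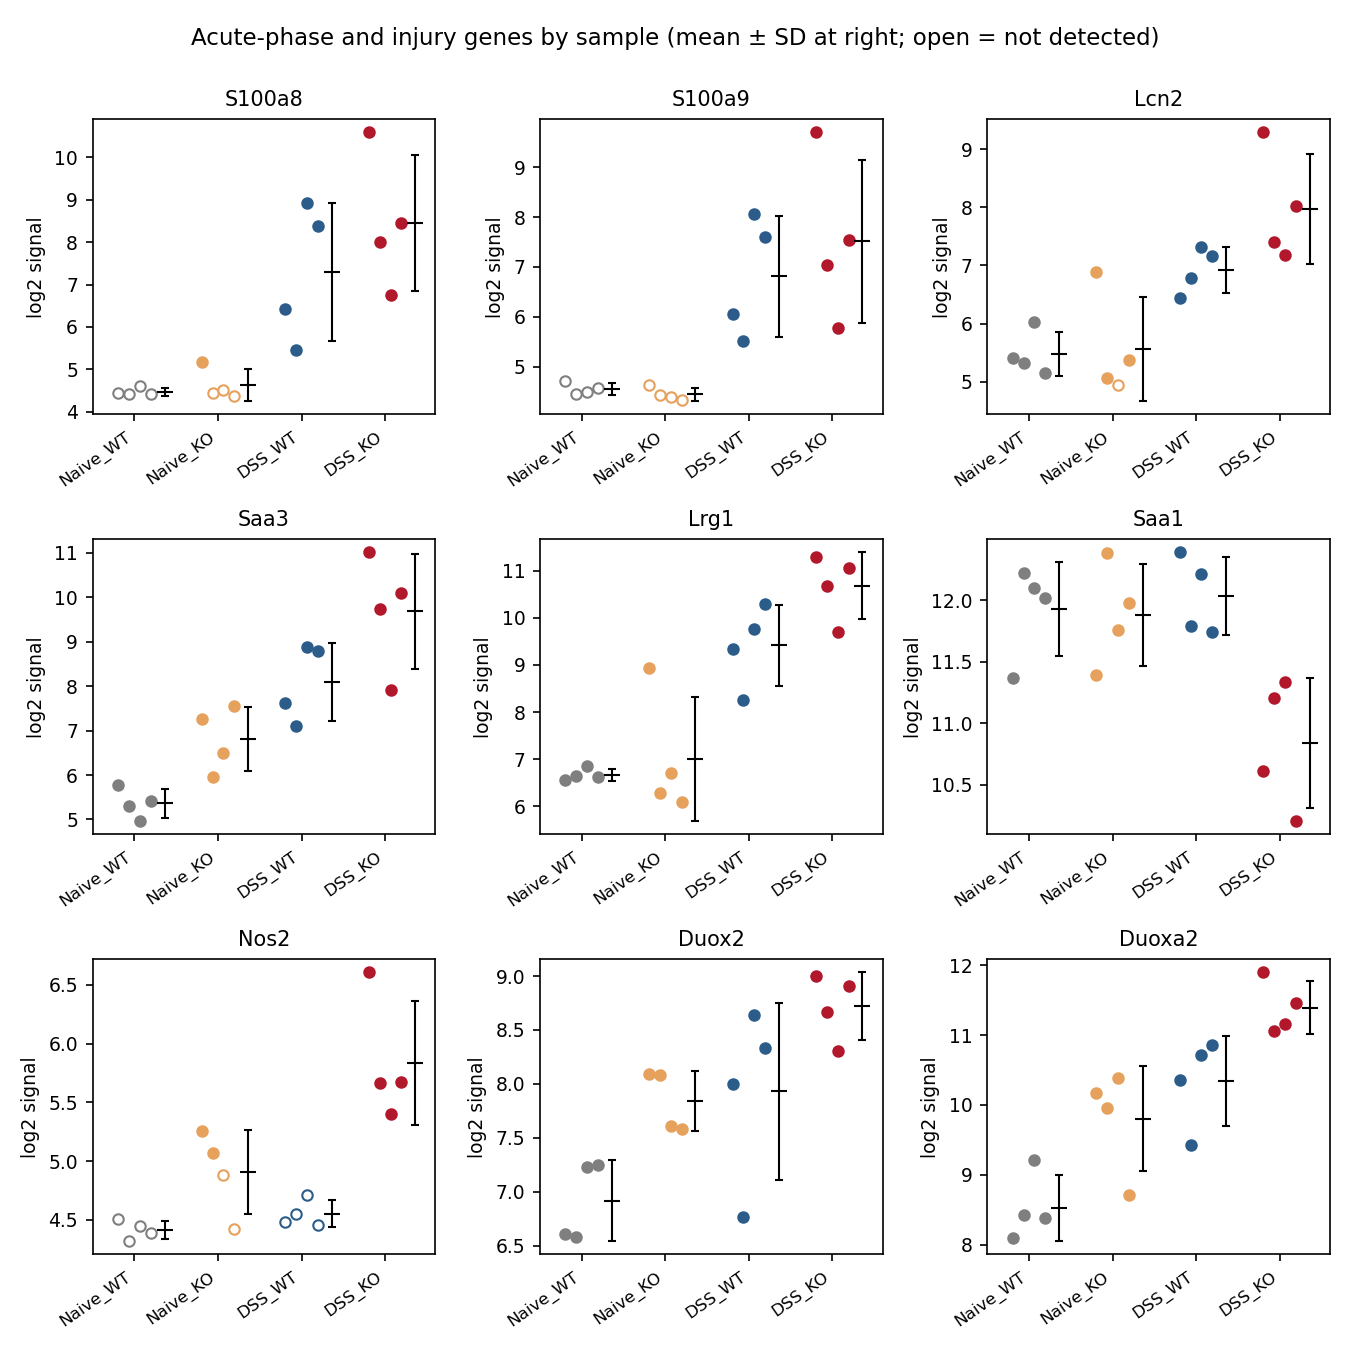
Log2 signal (vertical axes, each panel with its own scale) of the 9 genes in the 16 samples, grouped on the horizontal axis. Filled circles were detected and open circles were not, and the black bar gives the mean ± SD of 4 samples. S100a8 and S100a9 lie at background in naive samples, except S100a8 in Naive_KO sample 13, and spread over 2.54 log2 units or more within each DSS group, Saa1 is lower in DSS_KO alone, and Nos2 is detected in all samples of DSS_KO and in none of DSS_WT.

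The calprotectin genes were near background without DSS and above it with DSS. S100a8 is read by a probe at chromosome 3, 90473467 to 90473516 on the plus strand in the deposited coordinates, whose build is not named. The probe is shown because it carries the widest range of values in the set.
S100a8 probe: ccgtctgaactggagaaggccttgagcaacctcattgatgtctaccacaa
S100a8 gave log2 signals of 4.43, 4.43, 4.61 and 4.43 in Naive_WT and was detected on 0 of 4 arrays. In Naive_KO it gave 5.18, 4.43, 4.52 and 4.38, and only sample 13 was detected. It gave 6.42, 5.46, 8.93 and 8.38 in DSS_WT and 10.58, 8.00, 6.76 and 8.46 in DSS_KO. All 8 DSS samples were above all 8 naive samples, but the DSS groups overlapped and spanned 3.47 and 3.82 log2 units.

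S100a9 behaved in the same way. It was detected on 0 of 8 naive arrays, where it lay between 4.33 and 4.72. It gave 6.05, 5.52, 8.07 and 7.60 in DSS_WT and 9.70, 7.04, 5.77 and 7.55 in DSS_KO, in the same order of samples as S100a8 within each group. Across the 16 samples, S100a9 was the gene most like S100a8 of the 15756 others (Pearson r = 0.990), followed by Sirpb1a, a receptor of myeloid cells (r = 0.974), and Hdc, which makes histamine (r = 0.971). These correlations include the difference between naive and DSS samples and are given as a description.

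Lcn2 was mostly detected in naive samples. Its probe lies at chromosome 2, 32241263 to 32241312, on the minus strand, in the deposited coordinates and is shown as the readout of the iron-withholding gene.
Lcn2 probe: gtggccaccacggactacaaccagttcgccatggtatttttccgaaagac
Lcn2 gave 5.41, 5.32, 6.03 and 5.16 in Naive_WT and 6.88, 5.05, 4.94 and 5.38 in Naive_KO, where sample 13 stood apart and sample 15 was not detected. It gave 6.44, 6.79, 7.32 and 7.16 in DSS_WT and 9.29, 7.40, 7.19 and 8.03 in DSS_KO. The 3 genes most like Lcn2 over 16 samples were Ccl5, a chemokine (r = 0.968), Lrg1 (r = 0.939) and Tgm2, a transglutaminase (r = 0.936). S100a8 ranked 8 among 15756 genes in likeness to Lcn2 (r = 0.921), above Saa3 (r = 0.884), Duoxa2 (r = 0.802) and Duox2 (r = 0.735).

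Lrg1 was detected on all 18 arrays. It gave 6.56, 6.65, 6.85 and 6.61 in Naive_WT, a range of 0.29, and 8.94, 6.29, 6.70 and 6.08 in Naive_KO, where again sample 13 was the high one. It gave 9.34, 8.27, 9.77 and 10.29 in DSS_WT and 11.30, 10.68, 9.69 and 11.06 in DSS_KO. Sample 13 was above the lowest sample of DSS_WT, and every other naive sample was below all DSS samples.

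Saa1 had its lowest group mean in DSS_KO and Saa3 its highest, although the main fit called Saa1 in no contrast. Saa3 and Saa1 are neighbours on chromosome 7, with annotated start sites 27.3 kb apart in GRCm38.p6, and their probes share no stretch of 14 bases or more with a probe of another gene, except the dimmer of the Saa1 probes. The probes of the brighter Saa1 readout and of Saa3 are given because of these group means in DSS_KO. The Saa3 probe lies at chromosome 7, 53967541 to 53967590, on the minus strand in the deposited coordinates, and the deposited table gives no position for the brighter Saa1 probe.
Saa3 probe: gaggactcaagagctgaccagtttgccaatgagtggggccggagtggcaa
Saa1 brighter probe: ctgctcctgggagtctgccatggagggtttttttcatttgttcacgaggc
Saa3 gave 5.77, 5.29, 4.97 and 5.42 in Naive_WT and 7.26, 5.97, 6.49 and 7.54 in Naive_KO, and these groups did not overlap. It gave 7.61, 7.10, 8.88 and 8.79 in DSS_WT and 11.01, 9.73, 7.91 and 10.09 in DSS_KO. The group means were, in ascending order, Naive_WT (5.36), Naive_KO (6.81), DSS_WT (8.10) and DSS_KO (9.68), but Naive_KO overlapped DSS_WT and DSS_WT overlapped DSS_KO.

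Saa1 was detected in all samples. The brighter probe gave 11.37, 12.23, 12.10 and 12.02 in Naive_WT, 11.39, 12.39, 11.76 and 11.98 in Naive_KO, and 12.39, 11.79, 12.22 and 11.75 in DSS_WT. In DSS_KO it gave 10.62, 11.21, 11.34 and 10.21, and each of these 4 samples was below all other 12. The dimmer Saa1 probe lay between 6.37 and 7.22 in DSS_KO, against 7.73 to 8.28 in DSS_WT, 7.25 to 8.27 in Naive_KO and 7.37 to 8.39 in Naive_WT. This dimmer probe shares 20 bases with the Saa2 probe (cctgagggtggggtctgggc), so reads of the nearly identical Saa2 transcript may enter it. Saa2 itself was close to background, with group means of 4.99, 4.85, 5.06 and 4.60 in Naive_WT, Naive_KO, DSS_WT and DSS_KO, and Saa4 was detected on 0 of 18 arrays. Whether the brighter Saa1 probe also reads Saa2 was not tested.

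**Figure D2:**
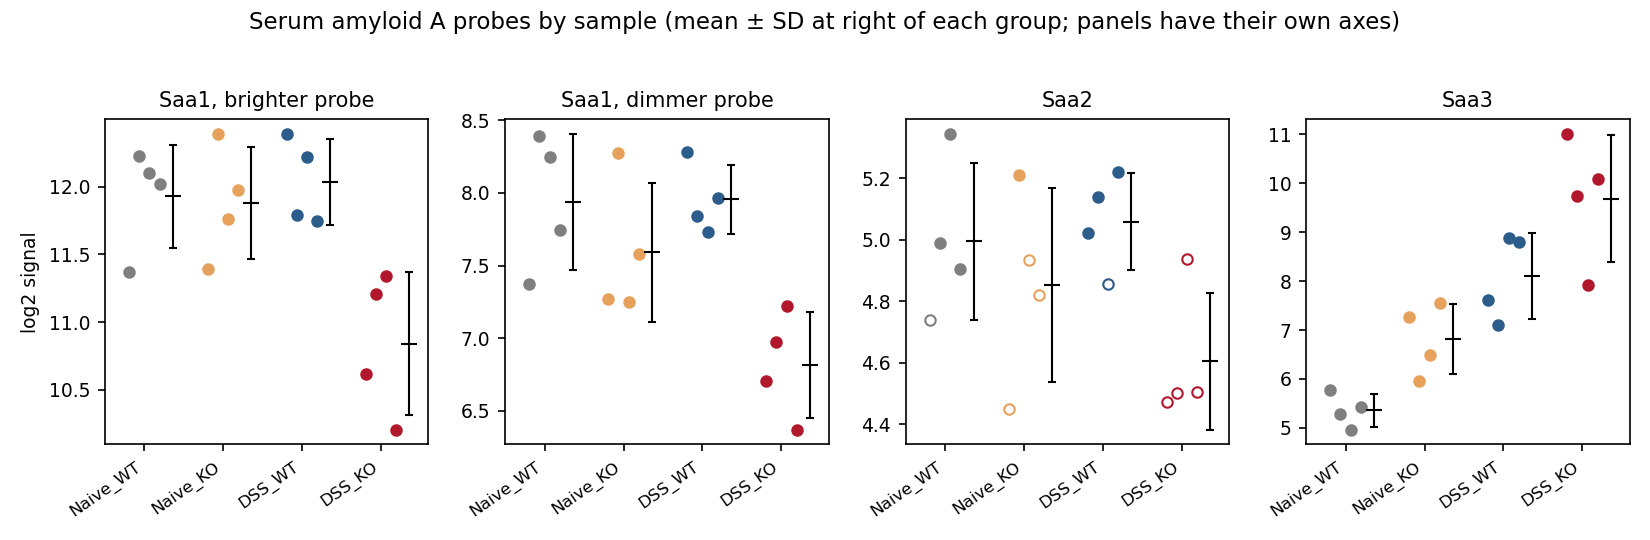
Log2 signal (vertical axis) of the serum amyloid A probes in the 4 groups, with 1 point per sample, open where not detected, and mean ± SD of 4 samples in black. The panels have their own axes. Both Saa1 probes are lowest in DSS_KO, where the brighter probe lies between 10.21 and 11.34, while the Saa3 probe is highest there.

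The oxidant enzymes differed among themselves. Nos2 has 2 probes on the array, of which 1 was detected on 0 of 18 arrays and was not tested. The other probe is shown because it was detected in DSS_KO and not in DSS_WT, and the deposited table gives no position for it.
Nos2 probe: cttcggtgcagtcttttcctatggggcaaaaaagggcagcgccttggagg
Nos2 was detected on 0 of 4 arrays of Naive_WT, on 2 of 4 of Naive_KO, on 0 of 5 of DSS_WT and on 5 of 5 of DSS_KO. Its signals were 4.50, 4.32, 4.45 and 4.39 in Naive_WT and 4.48, 4.55, 4.71 and 4.46 in DSS_WT. They were 5.26, 5.07, 4.88 and 4.42 in Naive_KO and 6.60, 5.66, 5.40 and 5.67 in DSS_KO. All samples of DSS_KO were above all 12 other samples, and the silent probe lay between 4.29 and 4.70 throughout.

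Duox2 and Duoxa2 are arranged head to head on chromosome 2, with annotated start sites 673 bases apart in GRCm38.p6. Duox2 gave 6.61, 6.58, 7.23 and 7.25 in Naive_WT, 8.09, 8.08, 7.61 and 7.58 in Naive_KO, 7.99, 6.76, 8.64 and 8.33 in DSS_WT, and 9.00, 8.66, 8.30 and 8.91 in DSS_KO. Its dimmer probe was detected on 0 of 8 naive arrays and on 9 of 10 DSS arrays.
Duox2 brighter probe: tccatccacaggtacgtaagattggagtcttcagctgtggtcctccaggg
Duox2 dimmer probe: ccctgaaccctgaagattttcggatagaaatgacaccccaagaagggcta
Both Duox2 probes are given because both were tested. Duoxa2 gave 8.10, 8.43, 9.21 and 8.38 in Naive_WT, 10.18, 9.95, 10.39 and 8.71 in Naive_KO, 10.35, 9.43, 10.71 and 10.85 in DSS_WT, and 11.89, 11.06, 11.15 and 11.46 in DSS_KO. For Duoxa2 the DSS_KO samples were all above the other 12, and both genes were lowest on average in Naive_WT.

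The sequence upstream of the start sites was read from RefSeq (GRCm38.p6), which held a promoter for 8 of the 9 genes, all but Nos2. The 250 bases before the start are shown for 3 pairs of genes. In the 8 DSS samples, deviations from the group means ran together for S100a8 with S100a9 (r = 0.987) and Duox2 with Duoxa2 (r = 0.921). For Saa1 with Saa3 they did not (r = -0.486). Capitals mark matches, on either strand, to the motifs of C/EBP (TTGCNNAA), AP-1 (TGANTCA), STAT (TTCNNNGAA), NF-kB and the TATA box (TATAAA).
S100a8, chr3:90668821-90669070, plus strand: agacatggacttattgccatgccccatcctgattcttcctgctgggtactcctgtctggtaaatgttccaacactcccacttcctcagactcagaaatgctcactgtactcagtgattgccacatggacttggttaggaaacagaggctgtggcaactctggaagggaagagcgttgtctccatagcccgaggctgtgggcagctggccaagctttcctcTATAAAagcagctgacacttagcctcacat
S100a9, chr3:90695722-90695971, minus strand: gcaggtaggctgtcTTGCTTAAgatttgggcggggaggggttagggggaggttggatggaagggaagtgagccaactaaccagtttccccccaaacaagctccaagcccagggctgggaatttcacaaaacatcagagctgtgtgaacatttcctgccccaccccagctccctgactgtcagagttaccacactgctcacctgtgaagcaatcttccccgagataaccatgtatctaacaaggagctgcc
Duox2, chr2:122298228-122298477, minus strand: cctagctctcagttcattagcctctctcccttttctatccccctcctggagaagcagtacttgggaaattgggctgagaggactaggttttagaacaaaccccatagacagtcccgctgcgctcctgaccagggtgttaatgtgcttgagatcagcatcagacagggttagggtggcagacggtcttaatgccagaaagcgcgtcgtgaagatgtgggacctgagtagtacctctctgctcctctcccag
Duoxa2, chr2:122298650-122298899, plus strand: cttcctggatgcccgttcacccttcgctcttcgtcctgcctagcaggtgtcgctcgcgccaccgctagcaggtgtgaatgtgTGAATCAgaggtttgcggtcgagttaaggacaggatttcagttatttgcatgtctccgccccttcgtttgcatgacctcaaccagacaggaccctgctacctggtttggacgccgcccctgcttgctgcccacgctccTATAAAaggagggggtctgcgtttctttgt
Saa1, chr7:46742981-46743230, minus strand: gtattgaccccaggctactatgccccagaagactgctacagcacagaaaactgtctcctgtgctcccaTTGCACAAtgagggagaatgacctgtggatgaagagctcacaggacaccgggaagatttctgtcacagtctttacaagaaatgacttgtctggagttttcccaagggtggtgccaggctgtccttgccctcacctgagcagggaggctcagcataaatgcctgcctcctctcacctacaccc
Saa3, chr7:46715677-46715926, minus strand: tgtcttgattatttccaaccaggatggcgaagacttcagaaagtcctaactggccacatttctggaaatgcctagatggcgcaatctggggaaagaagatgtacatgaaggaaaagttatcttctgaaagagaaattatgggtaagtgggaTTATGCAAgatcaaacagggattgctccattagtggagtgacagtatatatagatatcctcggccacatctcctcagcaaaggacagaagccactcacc
The C/EBP letters occurred in 4 of 8 windows (S100a9, Lcn2, Saa1 and Saa3), against 9.56% of all 32851 promoters. The TATA box letters occurred in 2 of 8 (S100a8 and Duoxa2, against 12.4%), the AP-1 letters in 1 of 8 (Duoxa2, against 6.75%), and the STAT and NF-kB letters in 0 of 8 (against 7.02% and 7.25%). CG dinucleotides, the sites at which DNA is methylated, numbered 2 in the windows of S100a8, S100a9 and Lrg1, 3 in those of Lcn2 and Saa3, 1 in that of Saa1, 6 in that of Duox2 and 15 in that of Duoxa2. The median over all promoters was 6. Methylation was not measured on these arrays, and matches are given as letters only.

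The comparison of DSS_WT with Naive_WT asks what colitis does to wild-type epithelium. In it, 3 of 9 genes rose and 0 fell, beside 1.51% of all tested genes that rose and 0.4% that fell. The 3 were Lrg1 (log2 fold change 2.75, SE 0.52, adjusted p = 0.00372 by limma), Saa3 (2.74, SE 0.53, adjusted p = 0.00432) and Duoxa2 (1.81, SE 0.36, adjusted p = 0.00467). S100a8, undetected in Naive_WT, was at least 5.27-fold higher (adjusted p = 0.0173 by limma) and S100a9, also undetected there, at least 3.76-fold higher (adjusted p = 0.0295), both above the limit of 0.01. Lcn2 (1.45, adjusted p = 0.0418 by limma) and Duox2 (1.01, adjusted p = 0.0458) were also below 0.05 only. The dimmer Duox2 probe, undetected in Naive_WT, was at least 1.09-fold higher (adjusted p = 0.00239 by limma). At that looser limit 7 of 9 were higher and 0 lower, against 6.26% and 4.56% of all genes. In 6 of 9 the DSS_WT samples were all higher, against 9.76%, and in 0 of 9 all lower, against 7.95%. Saa1 (0.11) had an interval that included 0, and Nos2 was undetected in both groups.

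The median log2 fold change of the 9 genes was 1.81, against 0.0074 over all genes. The calls rested on few samples: 0 of 9 remained called without DSS_WT sample 3, DSS_WT sample 4, Naive_WT sample 10 or Naive_WT sample 12, 1 (Saa3) without Naive_WT sample 9, and 5 without DSS_WT sample 2 or without DSS_KO sample 5, while the fold changes of Lrg1 and Saa3 stayed at 2.46 or more in those fits. The number called was also 0 with no filter on dim probes and 0 with a trended robust variance prior, but 7 with median scaling and 6 with array weights.

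**Figure D3:**
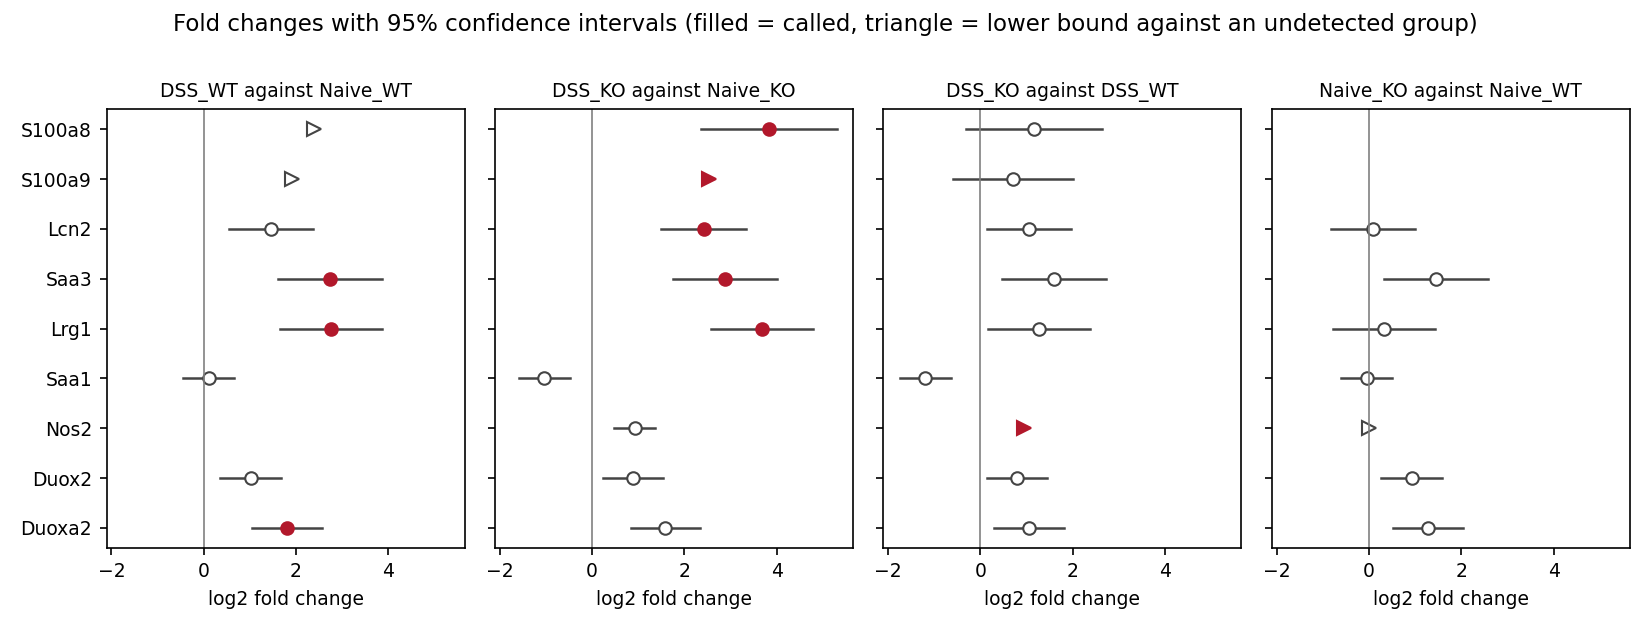
Log2 fold change (horizontal axis) of the 9 genes in 4 contrasts, with 95% confidence intervals from limma as lines. Filled symbols were called and open ones were not, a triangle is a lower bound where 1 group was undetected, and nothing is drawn where both were undetected or the bound was under 1-fold. The interval lies above 0 for 5 of 9 genes in DSS_WT against Naive_WT and for 7 of 9 in DSS_KO against Naive_KO, with Saa1 below 0 in DSS_KO.

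The comparison of DSS_KO with Naive_KO asks the same of Mbd2-/- epithelium. Here 5 of 9 genes rose and 0 fell, beside 1.24% of all genes that rose and 0.673% that fell. With no filter on dim probes 1 of 9 was called, and with a trended robust prior, with a fit to the groups compared, or without DSS_KO sample 5 and Naive_KO sample 13, 2 of 9. S100a8, detected on 1 of 4 arrays of Naive_KO, rose (adjusted p = 0.00322 by limma). The fitted difference was 3.82 (SE 0.70) on the log2 scale, and 3.43 with the undetected samples set to the lowest detected signal of their arrays. S100a9, undetected in Naive_KO, rose at least 5.79-fold (adjusted p = 0.00597 by limma), and without DSS_KO sample 5 the bound was at least 3.50-fold and the call was lost (adjusted p = 0.0127 by limma). Lrg1 rose by 3.68 (SE 0.52, adjusted p = 0.000647 by limma), Saa3 by 2.87 (SE 0.53, adjusted p = 0.00348) and Lcn2 by 2.41 (SE 0.43, adjusted p = 0.00283). Duoxa2 (1.59, adjusted p = 0.011 by limma) missed the limit narrowly. Nos2, detected on 2 of 4 arrays of Naive_KO, had 0.93 (adjusted p = 0.0116 by limma), or 0.78 with its undetected samples set to the lowest detected signal, and Duox2 had 0.88 (adjusted p = 0.0842) by its brighter probe. The dimmer Duox2 probe, undetected in Naive_KO, was at least 1.17-fold higher (adjusted p = 0.00177 by limma), but it entered the test through the DSS arrays. Saa1 went the other way, by -1.04 (SE 0.26, adjusted p = 0.02 by limma), and its dimmer probe by -0.77 (adjusted p = 0.0641).

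In this comparison the groups did not overlap for any of the 9 genes, with DSS_KO higher in 8 (against 8.07% of all genes) and lower in 1 (against 8.18%). At an adjusted p under 0.05, 7 were higher (against 5.17% of all genes) and 1 lower (against 4.67%), and the median log2 fold change was 2.41, against -0.010 over all genes. The number called was 3 without DSS_KO sample 5, DSS_KO sample 6 or Naive_KO sample 16, 2 without Naive_KO sample 15, and 1 without DSS_KO sample 8 or Naive_KO sample 14. Lrg1 was called in every one of these fits. The call of S100a9 was lost in all 6, and that of Saa3 in all but the fit without Naive_KO sample 16. S100a8 was lost without DSS_KO sample 8, Naive_KO sample 14 or Naive_KO sample 16, and Lcn2 without DSS_KO sample 8, Naive_KO sample 14 or Naive_KO sample 15. In the fits that lost the call, the log2 fold changes stayed at 3.74 to 3.82 for S100a8, 2.21 to 2.40 for Lcn2 and 2.43 to 2.86 for Saa3.

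The comparison of DSS_KO with DSS_WT asks whether loss of Mbd2 alters the injured epithelium. Only Nos2 was called, 1 of 9 genes, beside 0.47% of all genes that rose and 0.419% that fell. Its probe entered the test through the Mbd2-/- arrays, so its selection and this difference are not independent. Nos2, undetected in DSS_WT, rose at least 1.91-fold (adjusted p = 0.00301 by limma). Without DSS_WT sample 2 or DSS_WT sample 4 its adjusted p was 0.0113 or 0.0106 by limma, which ends the call. The number called was also 0 with no background correction, an offset of 50 or a fit to the groups compared. With a stricter filter 0 were called too, but the Nos2 probe was then not tested. Saa1 was lower in 4 of 4 samples, by -1.20 (SE 0.26, adjusted p = 0.0149 by limma) on the brighter probe and -1.14 (SE 0.25, adjusted p = 0.0155) on the dimmer probe. These were the 2 genes below an adjusted p of 0.05, at which 2.08% of all genes were higher and 3.52% lower.

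The other 7 genes all had higher means in DSS_KO than in DSS_WT, and none passed. The median over the 9 was 1.05, against -0.019 over all genes. Saa3 had a log2 fold change of 1.59 (95% interval 0.46 to 2.71, adjusted p = 0.089 by limma), Lrg1 1.26 (0.16 to 2.37, adjusted p = 0.164), Duoxa2 1.05 (0.30 to 1.81, adjusted p = 0.0908), Lcn2 1.05 (0.14 to 1.96, adjusted p = 0.161) and Duox2 0.79 (0.14 to 1.44, adjusted p = 0.141). The dimmer Duox2 probe had 0.19 (-0.036 to 0.41, adjusted p = 0.317 by limma), and without DSS_WT sample 2 the brighter probe had 0.40. S100a8 had 1.15 (-0.32 to 2.63, adjusted p = 0.355 by limma) and S100a9 0.70 (-0.60 to 2.01, adjusted p = 0.551). The intervals of the calprotectin genes were the widest of the set and included both no change and a rise of over 2 log2 units. Without DSS_KO sample 5 the log2 fold change was -0.024 for S100a9, 0.44 for S100a8 and 0.61 for Lcn2. Without DSS_WT sample 2 it was 0.54 for S100a8 and 0.28 for S100a9, and for S100a9 it was 0.45 without DSS_WT sample 1, 1.12 without DSS_WT sample 3 and 1.28 without DSS_KO sample 7. The groups did not overlap in 3 of 9 genes, Nos2 and Duoxa2 (higher, 5.84% of all genes) and Saa1 (lower, 9.1%).

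In naive mice 0 of 9 genes were called by limma between Mbd2-/- and wild-type CECs, beside 0.425% of all genes that rose and 0.298% that fell. An unadjusted p under 0.05 was given to 4 of the 9, against 3629 of all 15757 genes. Duoxa2 was higher by 1.28 (SE 0.36, adjusted p = 0.0477 by limma), with an adjusted p of 0.00631 and a call when Naive_KO sample 16 was left out. Saa3 was higher by 1.45 (SE 0.53, adjusted p = 0.118 by limma) and Duox2 by 0.92 (SE 0.31, adjusted p = 0.0901). Nos2 had a bound of at least 1.01-fold higher (adjusted p = 0.173 by limma). Duoxa2 was the 1 gene below 0.05, where 2.4% of all genes were higher and 3.03% lower. In Saa3 and Duox2 all Naive_KO samples were higher, against 6.39% of all genes, and in 0 of 9 all were lower, against 5.96%. Lrg1 (0.33), Lcn2 (0.09) and Saa1 (-0.05) had intervals on both sides of 0, S100a8 was detected on 1 of 8 arrays and S100a9 on 0, and the median over the 9 was 0.33, against -0.010 over all genes. Without Naive_KO sample 13 the log2 fold change was -0.31 for Lrg1, -0.35 for Lcn2 and 0.11 for Saa1.

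The interaction asks whether the response to DSS differed between genotypes. By limma it was called in 0 of 9 genes and in 0% of all genes. Of all 15757 genes, 1666 had an unadjusted p under 0.05, and so had 2 of the 9. These were Saa1, with -1.15 (SE 0.37, adjusted p = 0.27 by limma), and Nos2, with 0.79 (SE 0.30, adjusted p = 0.347), a fitted value that uses Naive_WT and DSS_WT, where Nos2 was undetected. For Lcn2 it was 0.96 (95% interval -0.33 to 2.25), for Lrg1 0.93 (-0.63 to 2.50), for Saa3 0.14 (-1.45 to 1.72) and for Duoxa2 -0.22 (-1.29 to 0.84). The interval of Saa3 thus reached beyond 1 log2 unit in both directions. No interaction is given for S100a8 and S100a9, whose naive signals were at background on 7 and 8 of 8 arrays. Leaving out each sample in turn gave 0.52 (without DSS_KO sample 5) to 1.40 (without Naive_KO sample 13) for Lcn2, 0.55 (without DSS_WT sample 2) to 1.58 (without Naive_KO sample 13) for Lrg1 and -0.59 (without Naive_KO sample 16) to -0.027 (without Naive_KO sample 15) for Duoxa2. For Saa3 the sign changed, from -0.31 (without DSS_KO sample 5) to 0.73 (without DSS_KO sample 7).

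With DSS, single samples stood at the same end of their group in many of the genes. Within DSS_KO, sample 5 was the highest in 8 of 9 genes and sample 7 the lowest in 7. Of the 8 genes detected in every DSS_WT sample, sample 3 was the highest in 5 and sample 2 the lowest in 6. Of the 5 genes detected in every Naive_KO sample, sample 13 was the highest in 2 and sample 16 the lowest in 3. Saa1 was the gene in which sample 7 was highest of DSS_KO. The arrays 4R and 5R, averaged here with 4 and 5, differed from their namesakes by at most 0.17 and 0.15 log2 units in these genes.

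Within the 8 DSS samples, the deviations of S100a8 from the group means ran with those of S100a9 (r = 0.987), Saa3 (r = 0.940), Lrg1 (r = 0.878), Duoxa2 (r = 0.875), Lcn2 (r = 0.853) and Duox2 (r = 0.834). Nos2, undetected in DSS_WT, is left out. The deviations of Lcn2 were closest to S100a9 (r = 0.918), and those of Duox2 to Duoxa2 (r = 0.921). Saa1 had r between -0.56 and -0.06 with the other 7. Lcn2 and Duox2 were less alike (r = 0.462). These are descriptions over 8 samples that share their arrays' processing.

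**Figure D4:**
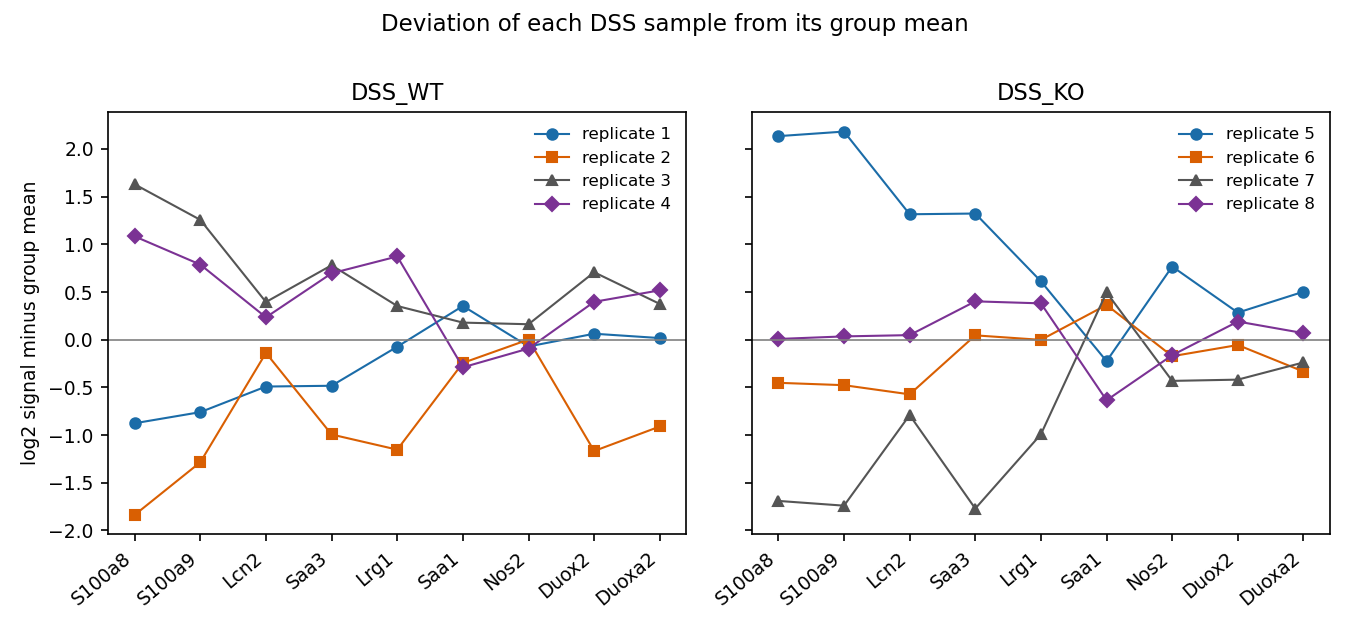
Log2 signal minus the group mean (vertical axis) for each DSS sample, with the 9 genes on the horizontal axis and 1 line per sample. In DSS_KO, sample 5 is above 0 in all genes but Saa1 and reaches 2.18 for S100a9, and sample 7 is below 0 in all but Saa1. In DSS_WT, samples 3 and 4 are high and sample 2 low in most genes, and Nos2 was undetected.

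Markers of other cell types also moved with DSS. Of 25 neutrophil markers, 24 had a probe (Ly6g had none), 7 were detected on 0 of 18 arrays, among them the defining receptor Cxcr2, and 12 were tested. In DSS_WT 3 of 12 rose, Il1r2 (1.87, adjusted p = 0.000615 by limma), Hdc (1.79) and Clec4d, and in DSS_KO the same 3 and Fpr2 (adjusted p = 0.00962 by limma) and Ltf (1.50) rose. Clec4d and Fpr2 were undetected in the naive groups compared and entered the test through the DSS arrays, so their place among these counts is not independent of the difference. Ltf was detected on 2 of 4 arrays of Naive_KO, its groups overlapped, and its difference was 1.29 with the undetected samples set to the lowest detected signal. Clec4d and Fpr2 were at least 2.02-fold higher in DSS_WT (Clec4d), and at least 1.70-fold (Clec4d) and at least 2.23-fold (Fpr2) higher in DSS_KO. Csf3r, the receptor for the neutrophil growth factor G-CSF, was detected on 11 of 18 arrays with log2 fold changes of 0.27 and 0.42 (adjusted p = 0.4 and 0.2 by limma). The medians over the 12 were 0.61 and 0.92, and the neutrophil list had a higher summed signal in every DSS sample than in any naive sample once Cd177, described next, was left out.

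Cd177, listed as a neutrophil surface protein, was detected on all 18 arrays, with means of 11.55, 12.91, 11.44 and 12.53 in Naive_WT, Naive_KO, DSS_WT and DSS_KO. It was higher in Mbd2-/- CECs with DSS (1.09, adjusted p = 0.00862 by limma) and without (1.36, adjusted p = 0.00203), and it dominated the summed signal of the list, which was 2791 to 4017, 5694 to 10847, 2578 to 4798 and 6273 to 7061 intensity units. Without Cd177, a choice made after the values were seen, the sums were 215 to 252 in Naive_WT, 212 to 328 in Naive_KO, 457 to 894 in DSS_WT and 535 to 1298 in DSS_KO. The highest value was that of DSS_KO sample 5 and the lowest of that group that of sample 7, the samples that were highest and lowest for S100a8. In DSS_WT sample 3 was highest in both, but the lowest sum was that of sample 1 and the lowest S100a8 that of sample 2. With Cd177 kept, the lowest sum of DSS_KO was that of sample 6. The part of neutrophil RNA in the values of S100a8, S100a9 and the other genes was not tested.

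Monocyte and macrophage markers rose in 12 of 14 tested genes in DSS_WT and in 6 of 14 in DSS_KO, beside 1.51% and 1.24% of all genes, with medians of 1.39 and 1.15. At an adjusted p under 0.05 by limma, 12 and 10 of 14 were higher. All 14 had a positive log2 fold change in both genotypes, and the interaction was called in 0 of 14. The 4 with the largest change in DSS_WT were Fcer1g (2.48 and 2.35), C1qb (2.10 and 1.78), Lyz2 (1.88 and 1.70) and Tyrobp (1.67 and 2.14). The 12 included Lst1, which was undetected in Naive_WT, entered the test through other groups and was at least 2.70-fold higher, and Adgre1, Tyrobp and Fcgr3, detected on 2 or 3 of 4 arrays of Naive_WT, with differences of 1.36, 1.64 and 1.24 when undetected samples were set to the lowest detected signal. In DSS_KO that setting gave 2.01 for Tyrobp, 1.77 for Fcgr3 and 1.54 for Lst1, detected on 2, 3 and 1 of 4 arrays of Naive_KO. Of 10 tested leukocyte markers 5 and 3 rose, among them Laptm5 (1.72 in DSS_WT), Cd52 (1.78 in DSS_WT), Coro1a (1.53 and 1.34) and Arhgdib (1.39 and 1.42), while Ptprc, which encodes CD45, the antigen excluded in the sort, was detected on at most 3 arrays by any probe and was not tested. Between genotypes with DSS, 0 of 14 and 0 of 10 were called by limma, and 1 and 2 had an unadjusted p under 0.05, against 3388 of all 15757 genes. Between naive genotypes 0 of 14 and 0 of 10 were called by limma, but 13 of 14 monocyte and macrophage markers and 9 of 10 leukocyte markers had higher means in Naive_KO, 7 and 1 had an unadjusted p under 0.05 (against 3629 of all 15757 genes), and the medians were 0.59 and 0.21. Plac8, which was not called in any contrast, made up 67.7% to 89.2% of the summed monocyte and macrophage signal. Without Plac8, a choice made after the values were seen, the sums were 1420 to 1999 in Naive_WT, 1707 to 3401 in Naive_KO, 2765 to 5594 in DSS_WT and 4670 to 5096 in DSS_KO. With it they were 10630 to 13422, 13785 to 15624, 15847 to 17343 and 15905 to 19475. The leukocyte sums were 537 to 933 in Naive_WT, 567 to 1456 in Naive_KO, 1417 to 3136 in DSS_WT and 2109 to 2503 in DSS_KO, and sample 13 was the highest of Naive_KO in this sum too. Their part in the results of the 9 genes was not tested.

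**Figure D5:**
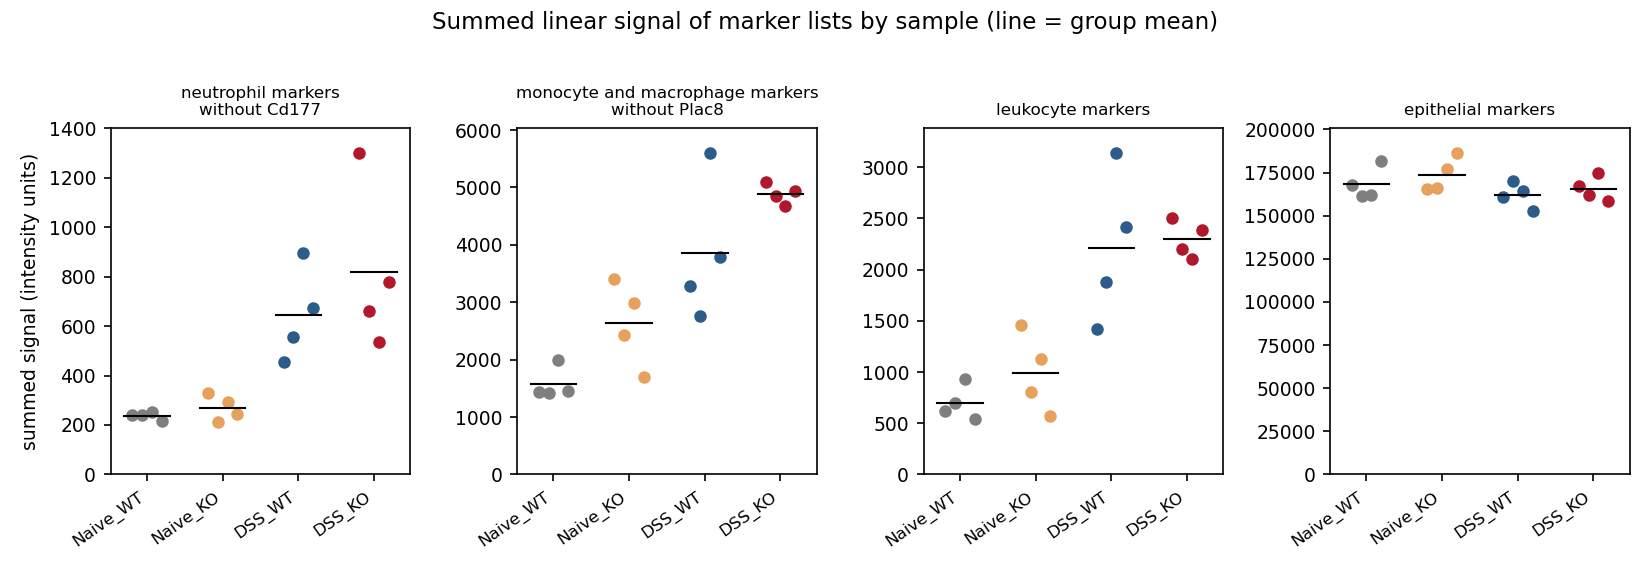
Summed linear signal in intensity units (vertical axes from 0, each panel with its own scale) of 4 marker lists, the neutrophil list without Cd177 and the monocyte and macrophage list without Plac8, with 1 point per sample and the group mean as a line. The neutrophil list without Cd177 runs from 212 to 328 in naive samples of Mbd2-/- mice and to 1298 in DSS_KO, while the epithelial sum stays between 152568 and 186090.

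Other genes of the acute-phase response were taken from a list of 25, of which 11 could be tested. In DSS_WT 4 of 11 rose: Serpina3n (2.89, adjusted p = 0.000327 by limma) and Serpina3g (2.62), both protease inhibitors, Lbp (1.90), which binds bacterial lipopolysaccharide, and the complement component C3 (1.75). In DSS_KO 5 of 11 rose: Serpina3n (3.04, adjusted p = 0.000288 by limma), Serpina3g (1.99), C3 (1.62), the haemoglobin-binding protein Hp (1.34) and the copper carrier Cp (1.18). Hp was detected on 1 and Cp on 2 of 4 arrays of Naive_KO, and with undetected samples set to the lowest detected signal their differences were 1.17 and 1.09. The medians over the 11 were 0.74 and 1.18, below those of the 9 genes. Between genotypes with DSS 0 of 11 rose and 1 fell, Il1rn, the antagonist of the IL-1 receptor (-1.66, SE 0.26, adjusted p = 0.00245 by limma), which had means of 9.93 in DSS_WT and 8.28 in DSS_KO. Without DSS it was also lower in Mbd2-/- CECs, by -1.05 (adjusted p = 0.0293 by limma), with means of 9.55 in Naive_WT and 8.50 in Naive_KO. Its interaction was -0.61 (adjusted p = 0.595 by limma).

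Of 22 tested cytokines and receptors upstream of these genes, 4 rose in DSS_WT and 3 in DSS_KO. Il1b had log2 fold changes of 2.56 and 2.12, Il6 of 1.23 and 1.55 and Osmr, the oncostatin M receptor, of 1.13 and 1.00, all called in both. Tnf rose in DSS_WT (1.21, adjusted p = 0.000894 by limma) and was not called in DSS_KO. Its group means were 8.15, 9.13, 9.36 and 10.05 in Naive_WT, Naive_KO, DSS_WT and DSS_KO. Between genotypes with DSS 1 of 22 fell, Eng, a co-receptor for TGF-beta (-1.13, adjusted p = 0.00504 by limma), and 0 rose.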

How the data were processed

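The authors deposited a GenomeStudio export (GSGX 1.1.1) with normalization set to none. For each array it holds the mean intensity of the beads of a probe, not background-subtracted, and a detection p-value set by the deposited negative controls. The submitters' processing notes name lumi and limma. Each value of the 12 probes rests on 21 to 68 beads (36 columns of bead numbers and standard errors served only this description), and the number of arrays limits the precision.

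The neqc function (limma 3.58.1, R 4.3.3) took background from the 936 negative controls, added an offset of 16, quantile-normalized the 18 arrays and returned log2 signals. A probe was tested if 4 or more arrays gave it a detection p-value below 0.05 (21938 probes). Arrays 4R and 5R, whose letter the labels do not explain, differed less from 4 and 5 (SD of the log2 difference 0.194 and 0.236) than other arrays of their group from each other, and were averaged with them. A limma model with 4 group means was fitted to 16 samples (12 residual degrees of freedom, two-sided, Benjamini-Hochberg over all tested probes within a contrast). The methods describe biological replicates of 1 or more mice from several experiments, without saying which mice or experiment gave which sample, so p-values measure the spread between these samples. The procedure was tested on simulated data.

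A bound was computed against the higher of the lowest detected signal and the probe's own signal on each dim array. Gene names were updated by Entrez identifier (GRCm38.p6, 29586 probes matched). The genes and lists were chosen with earlier results of these data known. Named from each list were up to 4 genes with the largest change called with DSS, any called between genotypes, and defining markers. Figures were drawn with matplotlib 3.10.9.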

Additional observations from a re-analysis of the deposited data

Results flagged for a closer look

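S100a8 in Naive_WT sample 11 had a log2 signal of 4.61, against 4.43 for the nearest other sample of that group, and the gap was 0.954 of the group's range, above the 95% critical value of Dixon's test for 4 samples. The probe was not detected in any sample of the group. Among 36 groups of 4 samples compared in this way, 1 stood apart, and chance gives about 1 in 20.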

How the results depend on the processing

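No paired analysis was possible because the sample numbers 1 to 16 are not shared between groups, and chip could not be used as a block because the column names give none. The number of the 9 genes called in DSS_WT against Naive_WT (3) was 7 with median scaling, 6 with array weights, 6 with DSS_KO sample 5 and Naive_KO sample 13 both left out (chosen after seeing the data), 0 with no filter on dim probes and 0 with a trended robust variance prior. In DSS_KO against Naive_KO (5) it was 8 with repeat arrays as separate replicates, 3 with no background correction, 1 with no filter, and 2 each with the trended robust prior, with a fit to the groups compared and with both samples left out. Taking repeat arrays as separate counts 5 replicates in each DSS group, which had 4 samples. In DSS_KO against DSS_WT (1) it was 0 with no background correction, with an offset of 50, with a stricter filter and with a fit to the groups compared, and 2 (Nos2 and Saa1) with median scaling, separate repeat arrays and array weights. The stricter filter removed the Nos2 probe, so it did not test that gene again. Leaving out each sample in turn gave 0 to 5, 1 to 6, 0 to 1 and, for Naive_KO against Naive_WT, 0 to 1 calls. The cause was not tested. The interaction had 0 calls in all settings run.

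Small values that were not called changed sign. S100a8 was detected on 1 of 8 naive arrays and the dimmer Duox2 probe on 0 of 8, so their values here rest on naive signals at background. With both samples left out, S100a9 in DSS_KO against DSS_WT was -0.024, the naive genotype contrast was -0.033 for S100a8, -0.35 for Lcn2, -0.31 for Lrg1 and 0.11 for Saa1, and the Saa3 interaction was -0.16. The Duox2 interaction was 0.046 by the dimmer probe. Leaving out each sample in turn gave S100a9 values of -0.024 to 1.28 in DSS_KO against DSS_WT and Saa1 values of -0.077 to 0.21 in DSS_WT against Naive_WT. In the naive genotype contrast it gave -0.033 to 0.23 for S100a8, -0.35 to 0.29 for Lcn2, -0.23 to 0.11 for Saa1 and -0.31 to 0.64 for Lrg1, and in the interaction -0.31 to 0.73 for Saa3 and -0.52 to 0.10 for Duox2.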

Other observations

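Apart from the calprotectin genes, 0 of 9 tested S100 family genes were called by limma with DSS in either genotype, and 2 and 5 had an unadjusted p under 0.05, against 4191 and 3962 of all 15757 genes. S100a11 was below an adjusted p of 0.05 in both, with log2 fold changes of 0.85 and 0.87 (adjusted p = 0.0033 and 0.00317 by limma).

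Among 19 transcription factors and feedback genes of the Stat3, C/EBP and NF-kB pathways, all tested, 0 were called by limma in any contrast, 11 and 8 had an unadjusted p under 0.05 with DSS in wild-type and Mbd2-/- mice (against 4191 and 3962 of all 15757 genes), and 6 were higher in DSS_WT against Naive_WT at an adjusted p under 0.05. Of these, Socs3, the feedback inhibitor of Stat3, had log2 fold changes of 0.91 in both genotypes (adjusted p = 0.0016 and 0.00184 by limma). Cebpb had 0.73 in wild-type mice (adjusted p = 0.00238 by limma). These genes are named by the looser limit and were picked after their values were seen.

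Of 23 tested genes of reactive oxygen and nitric oxide metabolism other than the members, 1 rose in DSS_WT (Ncf4, a subunit of the phagocyte oxidase, 1.04, adjusted p = 0.00799 by limma, detected on 3 of 4 arrays of Naive_WT and 0.99 with the undetected sample set to the lowest detected signal) and 0 in DSS_KO, where 9 had an unadjusted p under 0.05, against 3962 of all 15757 genes. Lpo, a peroxidase that uses hydrogen peroxide, was higher in Mbd2-/- CECs both with DSS (1.59, SE 0.27, adjusted p = 0.00355 by limma) and without it (1.97, SE 0.27, adjusted p = 0.00065). Its group means were 6.38, 8.35, 6.67 and 8.26 in Naive_WT, Naive_KO, DSS_WT and DSS_KO.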
